A study of Mus musculus with 3 samples.

Results

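Red blood cell precursors take up sugar, amino acids, lactate and nucleosides through carrier proteins of the SLC (solute carrier) families. The 10 nutrient transporter genes described here were taken from a list of gene names, and the rule for membership holds no measured value, though earlier results of these data were known when the list was made: Slc2a1 and Slc2a4 for glucose, Slc16a1 for lactate and other monocarboxylates, Slc7a5, Slc43a1, Slc1a5, Slc38a5 and Slc6a9 for amino acids, Slc29a1 for nucleosides and Slc14a1 for urea. They are 10 of 21911 protein-coding genes in the annotation (GENCODE M21), all 10 of which were found in it. For each gene the open chromatin at every annotated transcription start, the open regions in the gene and within 50 kb of it, and the footprints inside those regions were read in every replicate.

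The data are DNase-seq, in which the enzyme DNase I cuts open chromatin and the cut sites are sequenced, from whole liver of mouse embryos aged 13.5 days. All 3 biological replicates belong to 1 group: strain C57BL/6N,129 mice homozygous for a globin mutation that removes HS2 and HS3. No unaltered liver was analysed here, so nothing below compares genotypes, and no test between groups was possible. The labels give the replicates the same donor identifier and do not say whether they came from separate embryos or pools, so the SD (n = 3) may be technical in part. The sex of the embryos was not collected, which touches Slc38a5, a gene on the X chromosome.

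Replicates 1, 2 and 3 held 28209, 57314 and 41319 peaks in the shorter of the deposited lists, and 126616, 194898 and 179791 footprints. The median signal of the 24196 regions common to all 3 replicates was 2.36, 2.79 and 2.35, so replicate 2 was the highest there. Over all peaks of the shorter list the medians were 2.10, 1.06 and 1.37, so replicate 2 was the lowest by that measure. The tissue label was checked against cell type markers. Of 12 erythroid markers 10 had an open promoter in all 3 replicates, against 50.9% of all protein-coding genes. Of the rest, Alas2 had no promoter peak in any replicate and Hemgn had one in replicate 2 only. None of 8 hepatoblast, 5 macrophage or 5 endothelial markers had an open promoter in all 3 replicates, and of 5 megakaryocyte markers only Itga2b did. The summed promoter signal of the hepatoblast markers was 0.731, 4.24 and 0 in replicates 1 to 3, and that of the macrophage markers was 0 in each. A whole tissue mixes cell types, and fewer cells with a region open cannot be told apart from a weaker opening in each cell.

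As background, maturing erythroblasts make hemoglobin and divide rapidly, and both need imported nutrients. Glycine, carried by the product of Slc6a9, enters the first step of heme synthesis, and leucine and glutamine carriers feed protein synthesis and growth. The proteins of Slc7a5 and Slc16a1 reach the cell surface together with partner chains, encoded by Slc3a2 and Bsg. Promoters and enhancers in erythroid cells are known to be bound by GATA1 at GATA letters and by KLF1 at CACCC boxes, while GC boxes are bound by SP family factors and CTCF sites mark chromatin loop boundaries.

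Footprints are short stretches inside open chromatin with fewer cuts than their surroundings, as a bound protein can leave. The windows below are 41 bp around footprint positions found in all 3 replicates, read from the plus strand of GRCm38, the mm10 build of the files. Each such position is the whole span of the overlapping footprints joined over replicates. Not every base of it was therefore under a footprint in each replicate. Capitals mark matches to the searched motifs anywhere in a window, and not every match lies under a footprint in all 3 replicates. The windows are shown because the promoters of the transporters with the strongest signal carried footprints over GC boxes, CACCC letters or an NRF1 site. For Slc1a5 on chromosome 7, plus strand, the 4 windows lie upstream of its start at 16781340, and each holds a GC box (GGGCGG, here on the minus strand). The GC box of the first window lies just outside the open region, which begins at 16781121.

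Slc1a5, chr7:16781095-16781135: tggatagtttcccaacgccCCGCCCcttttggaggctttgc
Slc1a5, chr7:16781151-16781191: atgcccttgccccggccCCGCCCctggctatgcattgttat
Slc1a5, chr7:16781210-16781250: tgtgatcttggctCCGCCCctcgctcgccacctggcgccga
Slc1a5, chr7:16781288-16781328: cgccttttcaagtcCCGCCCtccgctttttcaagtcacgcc

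For Slc16a1 on chromosome 3 (start at 104638668, plus strand) the first window holds a GC box and the second an NRF1 site (GCATGCGC) shortly upstream of the start. For Slc2a4 on chromosome 11 (start at 69948188, minus strand) the window holds a CACCC box (CCNCACCC). For Slc7a5 on chromosome 8 (start at 121907694, minus strand) the windows hold 2 GC boxes, and a GC box beside an E-box (CACGTG, the letters bound by MYC and USF). The GC box at 121907742 was touched by a footprint in all 3 replicates. That at 121907728 was touched in replicate 2 only, and that at 121907825 in replicates 2 and 3. The E-box lies past the end of the open region, at 121907840. The windows of Slc1a5, Slc16a1 and Slc2a4 lie outside annotated genes, and those of Slc7a5 lie upstream of its start in an intron and a noncoding exon of overlapping genes.

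Slc16a1, chr3:104638562-104638602: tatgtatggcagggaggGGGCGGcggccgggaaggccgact
Slc16a1, chr3:104638604-104638644: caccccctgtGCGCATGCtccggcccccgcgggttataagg
Slc2a4, chr11:69948266-69948306: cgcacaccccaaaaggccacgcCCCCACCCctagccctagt
Slc7a5, chr8:121907724-121907764: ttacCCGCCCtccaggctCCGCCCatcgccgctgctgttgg
Slc7a5, chr8:121907814-121907854: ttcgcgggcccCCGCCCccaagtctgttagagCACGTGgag

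Away from the promoters, 2 footprint windows from the region 4.12 kb upstream of Slc6a9 and 1 window beside Slc43a1 are shown. The first Slc6a9 window holds GATA letters (GATAA, here TTATC on the plus strand) and the second a CACCC box. The Slc43a1 window, 29.8 kb downstream of its outermost start, holds the CTCF letters.

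Slc6a9, chr4:117830310-117830350: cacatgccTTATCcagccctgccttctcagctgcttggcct
Slc6a9, chr4:117830364-117830404: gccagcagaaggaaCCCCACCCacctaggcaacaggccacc
Slc43a1, chr2:84868633-84868673: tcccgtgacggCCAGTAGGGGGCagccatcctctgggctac

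In 9 of the 10 transporter genes a promoter was open in all 3 replicates, against 50.9% of all protein-coding genes. A promoter was called open where a region with a peak in every replicate reached within 500 bp of any annotated start. The exception was Slc38a5. In the longer deposited list all 10 genes passed, against 55.6% of all genes. Single replicates held a promoter peak at 9, 10 and 10 of the genes, where the shares of all genes were 51.4%, 57.5% and 55.5%. The promoter signal, which is the deposited signal value of the strongest such peak, had a median over the 10 genes of 5.63, 6.76 and 5.33 in replicates 1 to 3 (5.91 ± 0.753, SD, n = 3). Over all genes with an open promoter the medians were 5.08, 6.50 and 5.04, so the median of the 10 genes, Slc38a5 included, was near that of open promoters. No single transporter gene lay there, since none had a mean between 3.66 (Slc6a9) and 8.61 (Slc2a4). The genes fell into a strong and a weak tier, with 5 genes on each side of the open-gene median.

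**Figure D1:**
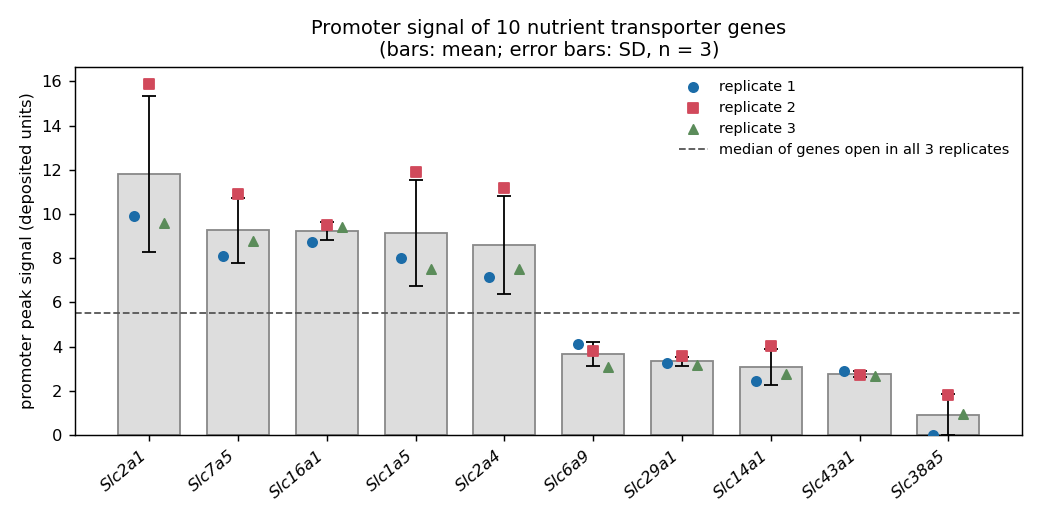
Promoter signal (deposited units, vertical axis) of the 10 transporter genes in each replicate (points), with the mean (bar) and SD (error bar, n = 3); the dashed line is the mean over replicates of the median of genes open in all 3, 5.54. Slc2a1, Slc7a5, Slc16a1, Slc1a5 and Slc2a4 lie above the line in every replicate, and the other 5 genes lie below it in every replicate.

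Among the glucose carriers, Slc2a1 had the highest promoter signal of the 10 genes. Slc2a1 (ENSMUSG00000028645.11, chromosome 4, 119108711 to 119137983, plus strand) encodes GLUT1, the widespread basal glucose transporter. Its promoter region at 119108561 to 119108840, which spans the outermost start and part of the 5' UTR, had a signal of 9.93 in replicate 1, 15.9 in replicate 2 and 9.59 in replicate 3. Replicate 2 was well above the other two, which were close to each other. The mean of 11.8 ± 3.53 was at the 94.8th percentile of all protein-coding genes, and by the mean Slc2a1 was the only one of these transporters among their highest 10%. By single replicates Slc16a1 was also among them in replicates 1 and 3, and Slc7a5 in replicate 3. A second, intronic region (119109001 to 119109360) was weaker and steadier, at 3.81, 3.72 and 4.45.

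Slc2a4 (ENSMUSG00000018566.14, chromosome 11, 69942539 to 69948188, minus strand) encodes GLUT4, the insulin-responsive glucose carrier best known from muscle and fat. Its single promoter region, at 69948181 to 69948380, had a signal of 7.16, 11.2 and 7.51 in replicates 1 to 3 (8.61 ± 2.22), at the 86.7th percentile of all genes. The same replicate was highest as for Slc2a1, and the ranges of the 2 glucose carriers overlapped. All 8 annotated Slc2a4 starts lie within reach of that region.

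Slc16a1 (ENSMUSG00000032902.1, chromosome 3, 104638668 to 104658462, plus strand) encodes MCT1, which moves lactate and pyruvate with a proton. The region at its only annotated start (104638481 to 104638760) had a signal of 8.74, 9.5 and 9.43 (9.22 ± 0.415), the most even of the strong tier. An intron held a second region at 104638961 to 104639380, with 3.78, 3.58 and 2.91.

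The amino acid carriers spanned the whole range. Slc7a5 (ENSMUSG00000040010.10, chromosome 8, 121881150 to 121907694, minus strand) encodes LAT1, which exchanges glutamine for large neutral amino acids such as leucine. It was open only at its outermost start, with 8.11, 10.9 and 8.77 in replicates 1 to 3 (9.26 ± 1.46), and its starts at 121896502 and 121883914 had no peak in any replicate. That region, 121907621 to 121907840, also lies within 500 bp of a start of BC048644, so its opening cannot be assigned to Slc7a5 alone.

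Slc1a5 (ENSMUSG00000001918.17, chromosome 7, 16781340 to 16798274, plus strand) encodes ASCT2, a carrier of glutamine and other neutral amino acids. The region at its outermost start (16781121 to 16781420) had a signal of 7.99, 11.9 and 7.53 (9.14 ± 2.40). Replicate 2 was again the highest. Internal starts at 16782398 and 16784738 were open in all 3 replicates too, but weakly, with means of 1.07 ± 0.403 and 1.02 ± 0.230, and the 4 starts farther in had no peak within 500 bp.

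Slc6a9 (ENSMUSG00000028542.17, chromosome 4, 117834506 to 117875198, plus strand) encodes the glycine carrier GLYT1. Of its 12 annotated starts the first 6 were within reach of a region common to all 3 replicates, and the other 6, from 117849193 on, had no peak in any replicate. The stronger of the 2 open regions, in an intron at 117835841 to 117836120, had a signal of 4.11, 3.81 and 3.07 (3.66 ± 0.536). The region over its 5' part, 117834881 to 117835600, had 2.73, 2.95 and 2.05. Both regions also lie inside Gm17114, an overlapping annotated gene.

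Slc43a1 (ENSMUSG00000027075.16, chromosome 2, 84838850 to 84863594, plus strand) encodes LAT3, a facilitated carrier of branched-chain amino acids. It had 2 promoter regions of almost equal strength. The first, at 84839281 to 84839609, had a signal of 2.87, 2.74 and 2.60, and the second, at 84840001 to 84840760, had 2.91, 1.99 and 2.66. Taking the stronger in each replicate, the mean was 2.77 ± 0.129, the smallest SD of the 10 genes.

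Slc38a5 (ENSMUSG00000031170.14, chromosome X, 8271133 to 8280179, plus strand) encodes SNAT5, a carrier of glutamine, glycine and serine. It was the weakest of the 10. Its promoter signal was 0, 1.82 and 0.980 in replicates 1 to 3, where 0 means that the shorter list held no peak, and in the longer list replicate 1 had 1.05. The peak lay at 8272021 to 8272400 in a coding exon, 379 bp from the innermost annotated start, and the 3 starts before it had a peak only in replicate 3, with 0.512, joined in the longer list by replicate 2, with 0.519. In the deposited false discovery rates (FDR) of the local cut density, 59 bases of the Slc38a5 promoter window were below 0.05 in replicate 1 and 0 were below 0.001. In replicates 2 and 3 the window had 162 and 238 bases below 0.001. The window of 1510 bp ends 500 bp past the innermost start, so it covers only part of the peak at 8272021 to 8272400. Within that window replicate 1 was listed only at the weaker of these limits.

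Slc29a1 and Slc14a1, the nucleoside and urea carriers, were open at internal starts. Slc29a1 (ENSMUSG00000023942.15, chromosome 17, 45585200 to 45599606, minus strand) encodes ENT1, which equilibrates adenosine and other nucleosides across the membrane. It has 24 annotated starts. Regions common to all 3 replicates lay at 45595461 to 45595680, with a signal of 3.28, 2.99 and 3.16, and at 45593461 to 45593800, with 2.81, 3.57 and 2.58. The outermost starts, at 45599603 to 45599606, had a peak in replicate 3 only, with 1.79, and in the longer list one in replicate 1 too, with 2.32. The Slc29a1 signal, from the stronger region in each replicate, was 3.34 ± 0.214.

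Slc14a1 (ENSMUSG00000059336.14, chromosome 18, 78100091 to 78142119, minus strand) encodes UT-B, the urea channel that carries the Kidd blood group antigen. Its outermost start at 78142119 had no peak in any replicate. The starts at 78123426 and 78123331 shared a region, 78123221 to 78123560, with a signal of 2.44, 4.03 and 2.78 (3.08 ± 0.833). Called from the outermost start alone, 7 instead of 9 of the 10 genes were open in all 3 replicates, and Slc14a1 had a signal of 0, Slc29a1 one of 0.598 ± 1.04 and Slc6a9 one of 1.59 ± 1.42. The 50.9% of all genes is for any start. The share of all genes from the outermost start alone was not computed, so the 7 has no background beside it.

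Ordered by mean promoter signal, the genes ran Slc2a1, Slc7a5, Slc16a1, Slc1a5, Slc2a4, Slc6a9, Slc29a1, Slc14a1, Slc43a1 and Slc38a5. Of the 9 steps between neighbours only 2 exceeded the larger SD of the pair. The step from Slc2a4 to Slc6a9 was 4.95 (larger SD 2.22), and every replicate of Slc2a4 was above every replicate of Slc6a9. This step depends on the window, since within 1000 bp the Slc6a9 signal was 5.99 ± 2.09, while that of Slc2a4 stayed at 8.61 ± 2.22. The Slc6a9 value is then above 5.54, but that open-gene median is for 500 bp. The open-gene median at 1000 bp was not computed. The step from Slc43a1 to Slc38a5 was 1.84 (larger SD 0.909), again with ranges apart. At the other steps neighbouring genes did not differ beyond their spread. Slc2a1 was nonetheless the highest of the 10 in every replicate, Slc1a5 was above Slc2a4 in all 3, and Slc29a1 lay wholly above Slc43a1, which is not its neighbour. In 8 genes replicate 2 had the highest signal, and in Slc43a1 and Slc6a9 replicate 1 did. Whether the higher median signal of replicate 2 over the common regions had a part in this was not tested. After scaling the replicates to equal medians of their common regions, the median over the 10 genes was 5.90 ± 0.206.

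**Figure D2:**
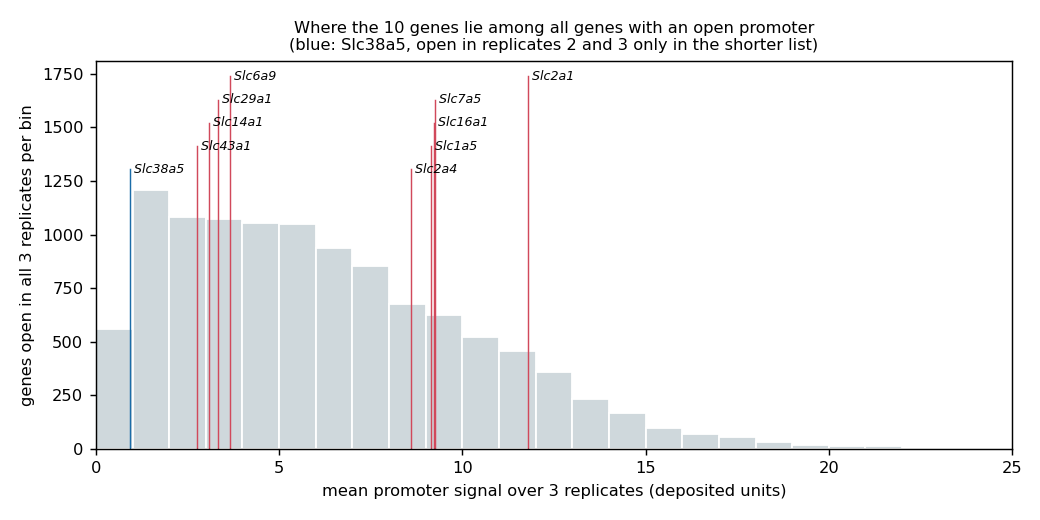
Number of genes open in all 3 replicates (vertical axis) by mean promoter signal in deposited units (horizontal axis, bins of 1), with lines at the 10 transporter genes. The 5 strong genes, at 8.61 to 11.8, lie on the falling right side of the distribution and the weak genes, at 3.66 or less, on its left.

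The promoters of the 2 tiers were not split by CpG content. Over 500 bp at the strongest common region, the ratio of observed to expected CpG was 1.23 at Slc7a5 and 1.07 at Slc16a1, above 99.9% and 96.4% of open promoters. At Slc2a4 it was 0.571 and at Slc2a1 0.699, both below the median of open promoters, 0.818. Slc14a1, with 0.266, had a lower ratio than all but 1.53% of them. Strong promoters were thus found both above and below the median CpG ratio of open promoters.

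Related transporter genes served as a further description. Of 52 listed genes from the same families and their partner chains, 30 were open in all 3 replicates and 15 had no peak in any. That open share is close to the 50.9% of all protein-coding genes, which is also the background for the family counts below. Of 4 partner chains 2 were open in all 3 replicates: Bsg, which brings MCT1 to the membrane, had a promoter signal of 9.82, 14.7 and 9.58, and Slc3a2, the heavy chain of LAT1, had 8.61, 13.7 and 7.09. In the glucose family 5 of 9 other genes were open, led by Slc2a8 (5.05 ± 1.53) and Slc2a3 (2.68 ± 0.570), both below Slc2a1 and Slc2a4 in every replicate. Slc2a2, the liver-type glucose carrier GLUT2, and Slc2a10 had no promoter peak in any replicate.

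Slc16a1 was not the strongest of its family. Slc16a10, an aromatic amino acid carrier, had 13.8 ± 3.49 and Slc16a3, the lactate exporter MCT4, 12.7 ± 4.78, both above Slc16a1 in all 3 replicates, and Slc16a8 had no peak. Among the nucleoside carriers Slc29a3 (8.88 ± 1.40) and Slc29a2 (4.25 ± 0.827) were each above Slc29a1 in every replicate, and the concentrative carriers Slc28a1 and Slc28a2 had no promoter peak. Slc14a2, the other urea transporter gene, had none either.

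In the amino acid families the listed relatives stood on both sides. Slc1a4 (9.27 ± 3.33) was close to Slc1a5, above it in replicate 2 and below it in the other two, while Slc1a2 had 1.02 ± 0.328 and Slc1a1 no peak. Slc7a1, a cationic amino acid carrier, had 4.71 ± 0.436 and Slc7a6 3.72 ± 0.337, both under Slc7a5, and Slc7a10 and Slc7a3 had no peak. The other listed genes of the Slc43 family, Slc43a2 (6.72 ± 1.19) and Slc43a3 (4.40 ± 0.514), were above Slc43a1 in every replicate. Slc38a10 (9.83 ± 3.91) and Slc38a9 (5.48 ± 1.51) were far above Slc38a5, and Slc38a3 had no peak. Beside Slc6a9, the taurine carrier gene Slc6a6 had 6.23 ± 0.644, Slc6a20a 0.917 ± 0.134 and the creatine carrier gene Slc6a8 no peak. Of the other two partner chains, Slc3a1 had no peak, and Emb, another partner of monocarboxylate carriers that was named after its values were seen, had one in replicate 3 only, with 0.648.

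**Figure D3:**
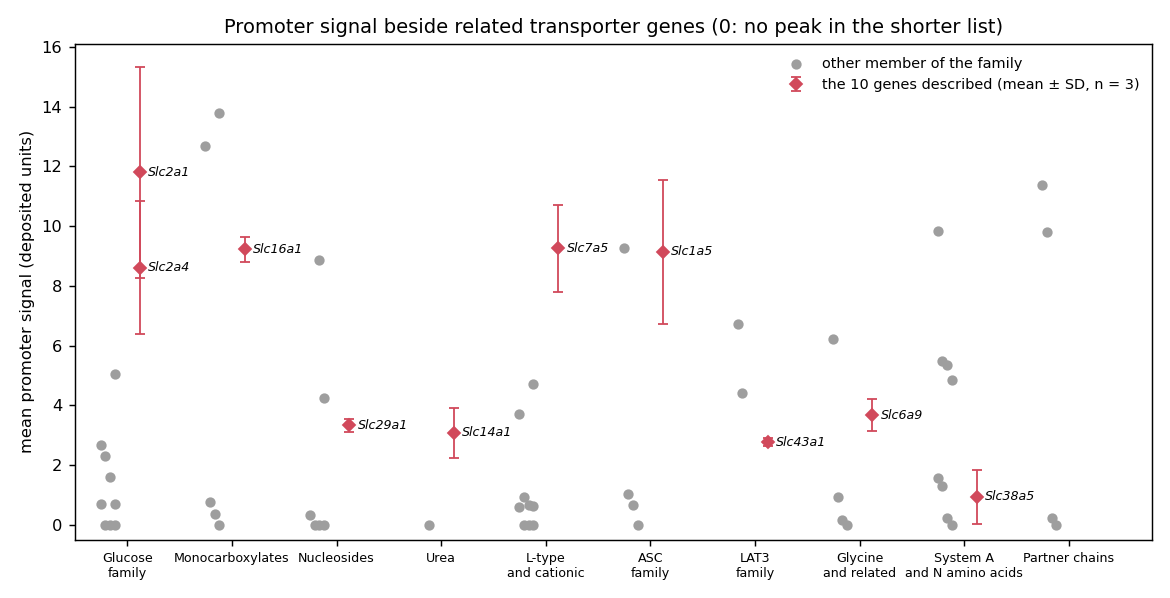
Mean promoter signal in deposited units (vertical axis) of the transporter genes described (red diamonds, mean ± SD, n = 3) and of the other listed genes of each family (grey points, means), by family (horizontal axis). Slc2a1, Slc2a4, Slc7a5 and Slc14a1 lie above the other listed genes of their families, Slc1a5 lies level with Slc1a4, and Slc16a1, Slc29a1, Slc43a1, Slc6a9 and Slc38a5 lie below at least 1 relative.

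Distal regions, over 1 kb from any annotated start of any gene, were found near every gene. All 10 genes had at least 1 distal region common to all 3 replicates in the gene or within 50 kb, against 49.0% of all genes. With at least 3 such regions, 5 of the 10 passed against 12.2%, and with at least 1 in the gene body 4 of the 10 passed against 13.4%. The count was 7 at Slc7a5, 5 at Slc43a1 and Slc6a9, 4 at Slc2a1, 3 at Slc16a1, 2 at Slc14a1 and Slc29a1, and 1 at Slc2a4, Slc38a5 and Slc1a5. Longer genes have a wider window, and many of these regions have the start of another gene as their nearest.

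The genes held 31 distal regions common to all 3 replicates, of which 17 lay outside genes, 10 in introns and 4 over exons. Their median signal was 2.15, and 23 of the 31 were above 1.76, the median of the 8810 such regions of the genome. Without replicate 1 the count of regions common to the rest was 53 instead of 31, and replicate 1 was the one with the fewest peaks. Among peaks in the upper 50% of each list it was 17.

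**Figure D4:**
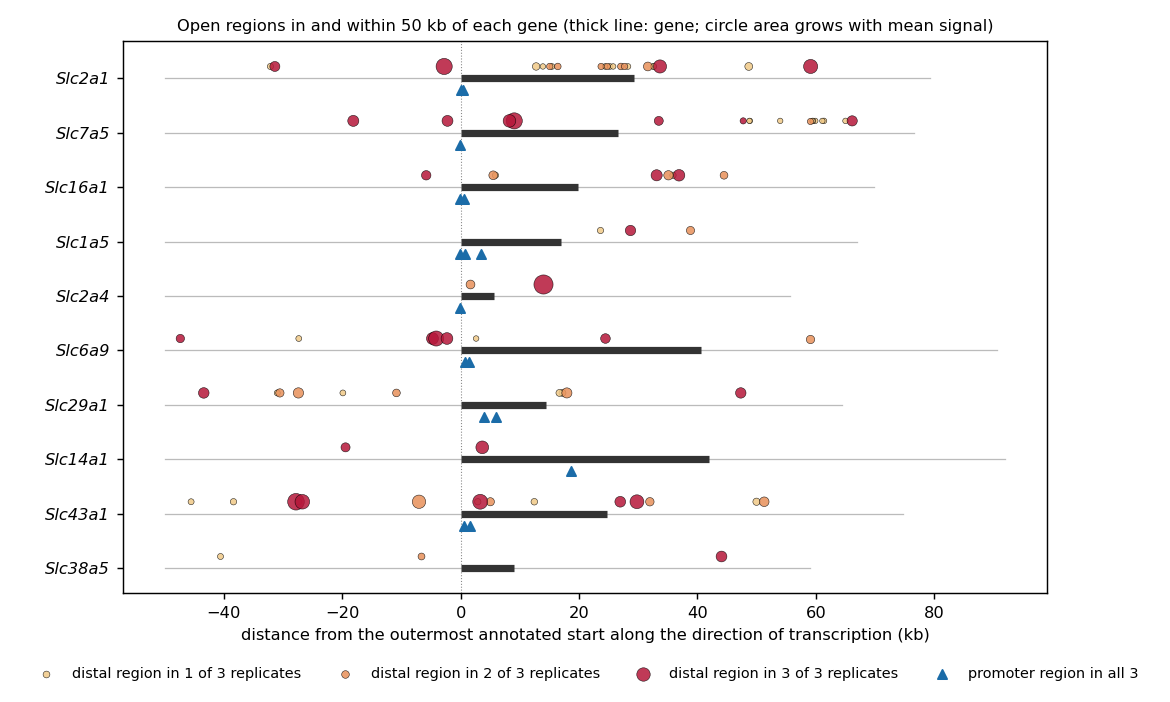
Distal open regions (circles, area growing with mean signal, coloured by the number of replicates with a peak) and promoter regions common to all 3 replicates (triangles) at each gene, by distance in kb from the outermost start along the direction of transcription; thick lines are genes. The largest circle lies 13.9 kb downstream of the Slc2a4 start, and the promoter triangles of Slc14a1 and Slc29a1 lie inside the gene.

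The strongest distal region was at Slc2a4, 13.9 kb downstream of its outermost start and past the end of the gene, at chr11:69934241-69934420. Its signal was 8.17, 7.17 and 7.05 in replicates 1 to 3 (7.46 ± 0.614), at the 97.9th percentile of common distal regions. Here replicate 1 was the highest, unlike at the Slc2a4 promoter. The nearest annotated start, 1376 bp away, belongs to Ybx2, so the region is not assigned to Slc2a4. It is shown in full because it held 2 footprint positions shared by all 3 replicates, in capitals. Capitals that mark shared footprints, here and below, give the joined span, and not only bases under a footprint in every replicate. The first position covers a CACCC box on the minus strand and the second a loose core of the CTCF letters.

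Slc2a4 +13.9 kb, plus strand: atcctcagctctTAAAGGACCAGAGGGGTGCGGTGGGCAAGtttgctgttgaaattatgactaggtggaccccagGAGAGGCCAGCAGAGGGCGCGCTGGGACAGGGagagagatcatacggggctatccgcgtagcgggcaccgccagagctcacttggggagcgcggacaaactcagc

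Slc2a1 had a strong region 2.78 kb upstream of its start, nearest to Slc2a1 itself, at chr4:119105821-119106040. Its signal was 4.76, 6.30 and 4.37 (5.14 ± 1.02), at the 94.4th percentile. The shared footprint, in capitals, covers 1 of 2 GC boxes in whole, and no GATA letters lie in the region. The other GC box, at 119105905, reaches into the capitals but was touched by a footprint in replicates 1 and 2 only. Inside the Slc2a1 gene 13 further distal regions were listed, 11 of them in replicate 2 and 8 in replicate 3, with signals of 0.279 to 1.99, but none in replicate 1. At this gene the weak regions set replicate 1 apart from replicates 2 and 3. That did not hold at every gene: in and around Slc7a5, replicates 1 to 3 had 12, 7 and 13 distal regions.

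Slc2a1 -2.78 kb, plus strand: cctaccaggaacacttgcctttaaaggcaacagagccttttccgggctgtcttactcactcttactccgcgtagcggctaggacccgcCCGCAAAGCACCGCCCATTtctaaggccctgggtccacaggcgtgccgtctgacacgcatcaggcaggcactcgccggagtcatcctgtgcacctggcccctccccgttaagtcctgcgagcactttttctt

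Slc43a1 held an intronic region 3.31 kb downstream of its outermost start, at chr2:84842021-84842300, with a signal of 3.69, 5.77 and 3.37 (4.28 ± 1.30, 91.6th percentile). Its shared footprint, in capitals, ends in a CACCC box, and GATA letters (ttatc on this strand) lie a few bases beyond it, with no footprint over them in any replicate. Upstream, 27.8 kb from the Slc43a1 start and nearest to Ube2l6, a region had 5.86, 6.22 and 4.39 (5.49 ± 0.967), and an adjacent one in an intron of Smtnl1 had 3.48, 5.81 and 3.02. A region 7.03 kb upstream of Slc43a1 was in the shorter list of replicates 2 and 3 only, with 6.37 and 3.65, and in the longer list of replicate 1 with 2.03.

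Slc43a1 +3.31 kb, plus strand: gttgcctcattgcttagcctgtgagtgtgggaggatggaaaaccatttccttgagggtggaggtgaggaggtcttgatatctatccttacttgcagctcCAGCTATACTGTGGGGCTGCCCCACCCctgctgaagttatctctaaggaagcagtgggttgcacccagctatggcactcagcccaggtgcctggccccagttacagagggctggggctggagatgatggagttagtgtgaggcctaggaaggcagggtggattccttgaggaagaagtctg

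Slc7a5 had 2 intronic regions. The stronger, 9.06 kb downstream of the outermost start at chr8:121898501-121898760, had a signal of 4.20, 7.15 and 4.03 (5.13 ± 1.76, 94.4th percentile), and the other, 8.25 kb downstream, had 2.14, 4.30 and 2.32. In both, replicate 2 was above the others. The stronger region held no footprint position shared by all 3 replicates. Capitals here mark motif matches: the letters TGATGNAA of the amino acid response element, which ATF4 is known to bind when amino acids run short, and a CACCC box, both on the minus strand. Each was touched by a footprint in 1 replicate only.

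Slc7a5 +9.06 kb, plus strand: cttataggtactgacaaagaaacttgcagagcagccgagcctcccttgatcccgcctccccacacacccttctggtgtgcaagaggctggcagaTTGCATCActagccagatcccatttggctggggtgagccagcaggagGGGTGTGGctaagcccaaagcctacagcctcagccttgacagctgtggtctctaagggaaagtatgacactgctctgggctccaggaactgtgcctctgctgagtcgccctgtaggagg

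Slc6a9 had 3 regions in the 5 kb upstream of its outermost start, at 4.76, 4.12 and 2.31 kb. The middle one was the strongest, with 3.96, 5.87 and 3.38 (4.40 ± 1.30, percentile 92.2), and it holds the GATA and CACCC windows printed above. The CACCC box was under a footprint in all 3 replicates, while the GATA letters themselves were touched in replicate 2 only. The outer regions had 2.46, 2.82 and 2.37, and 2.61, 2.73 and 2.02, and each was steadier than the middle one.

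The only common distal region near Slc38a5 lay 44.0 kb downstream of its outermost start, at chrX:8315021-8315200 and nearest to Ssxb10, with 1.85, 2.27 and 1.79 (1.97 ± 0.259). Its 3 shared footprint positions are in capitals. The second holds GATA letters near its end and the third covers the CTCF letters.

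Slc38a5 +44.0 kb, plus strand: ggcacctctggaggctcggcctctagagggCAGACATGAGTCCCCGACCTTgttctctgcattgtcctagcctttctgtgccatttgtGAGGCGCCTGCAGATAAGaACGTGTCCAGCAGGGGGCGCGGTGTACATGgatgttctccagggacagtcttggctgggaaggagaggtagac

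Slc14a1 held 1 in an intron, 3.66 kb downstream of the outermost start, with 1.97, 3.74 and 3.26, although that start itself had no peak. Slc16a1 had 3 regions with means of 1.38 to 2.35, and Slc29a1 had 2 with means of 1.82 and 1.89, both over 40 kb away.

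Footprints in the promoter peaks of the 10 genes numbered 70, 64 and 74 in replicates 1 to 3 (69.3 ± 5.03). In the 16 promoter regions common to all 3 replicates, 35 footprint positions were shared by all 3, or 5.85 per kb, against 6.80 per kb over all common promoter regions of the genome. Slc1a5 had 7 of them, Slc2a1, Slc16a1, Slc43a1 and Slc7a5 5 each, Slc29a1 4, and Slc2a4 and Slc14a1 2 each. Slc6a9 had none, although its 2 promoter regions held 2, 8 and 3 footprints in replicates 1 to 3. In the 31 distal regions 40 positions were shared, or 4.80 per kb, against 5.47 per kb genome-wide. Shared footprints were thus slightly less dense at these genes than in the genome on both counts, and the difference was not tested.

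The shared positions were searched on both strands, in 41 bp windows, for 17 motifs: the GATA letters GATAA, a TAL1-GATA composite, the CACCC box (CCNCACCC), the GC box (GGGCGG), NF-E2, AP-1 (TGANTCA), ETS (CCGGAAG), NRF1 (GCATGCGC), YY1 (AAGATGGCG), NF-Y (GCCAAT), the E-box (CACGTG), the amino acid response element (TGATGNAA), CRE (TGACGTCA), STAT (TTCNNNGAA), RUNX (TGTGGTT), HNF4 (CAAAGTCCA) and CTCF. The composite contains the GATA letters, the NF-E2 letters contain those of AP-1, and the CTCF letters contain a shorter loose core, which was added after the sequences had been seen. A match says that the letters are there and not that a factor was bound.

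At the promoters the GC box was the most frequent of these motifs, in 13 of 35 windows (37.1%, against 30.4% of all shared promoter positions). Slc1a5 supplied 4 of the 13 and Slc7a5 3. The CACCC box was in 2 windows (5.71%, against 3.11%), at Slc2a4 and Slc14a1, and GATA letters were in 1, at Slc7a5 (2.86%, against 1.10%). NRF1 letters were in 1 window, at Slc16a1 (2.86%, against 2.17%), and the E-box in 1, at Slc7a5 (2.86%, against 1.67%). ETS and NF-Y letters, present in 3.73% and 3.77% of all shared promoter positions, were in none of the 35.

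In the 40 distal windows the CACCC box was in 4 (10%, against 2.82% of all shared distal positions), at Slc2a4, Slc16a1, Slc43a1 and Slc6a9. GATA letters were in 3 (7.5%, against 4.01%), at Slc38a5, Slc6a9 and Slc7a5. The strict CTCF letters were in 5 (12.5%, against 12.3%) and the loose core in 14 (35.0%, against 25.6%). The loose core was found at 9 of the 10 genes, and 12 of the 14 positions lay over 10 kb from the outermost start. Neither count was made over all genes or all shared positions, so neither shows a trait of these genes or of the core. In 200 bp around the middle of each distal region the loose core was in 14 of 31 (45.2%, against 38.3% of all common distal regions). The GC box and the E-box were in 1 window each, both at Slc2a1 (2.5%, against 7.60% and 0.878%).

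Over whole regions the GATA share was closer to the genome's. In 200 bp around the middle of each distal region GATA letters were in 9 of 31 (29.0%, against 26.6% of all common distal regions) and the CACCC box in 7 (22.6%, against 11.7%). These counts are small, and they describe the listed regions only. In 200 bp around the 16 promoter regions the GC box was in 13 (81.3%, against 61.0% of all common promoter regions). At Slc29a1 the region at 45593461 to 45593800 held 1 TAL1-GATA composite, in the UTR, touched by a footprint in replicates 2 and 3. The GATA letters within it were touched in replicate 3 only. Another GATA match of the region, at 45593572, was touched in all 3 replicates, though it lies outside the shared positions. The composite was the only one at the 16 promoter regions (6.25%, against 0.589%).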

How the data were processed

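DNase-seq of 3 biological replicates (1 group) was analysed from the files the authors deposited for each replicate, which were not pooled, per the deposited notes. The peak lists give a signal value per peak, which the deposited notes do not define; its values below 2 are whole multiples of a fixed step (0.0126, 0.00837 and 0.00753 in replicates 1 to 3), and taking 1 step as 1 cut would mean depths of 79.4, 119.5 and 132.7 M cuts, which the files do not state. The FDR of the local cut density, a p-value type of measure, was deposited by the authors only where below 0.05, and every deposited footprint carries an FDR of 0.01. The files use mm10, per the labels. The aligner and callers were not given in the sources used here.

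Of the peak lists the shorter was used, with the longer one as an alternative. Peaks that shared at least 1 bp between replicates were joined into regions, with Python 3.11.15 and numpy 2.4.6, and the joining, promoter and motif steps were tested on simulated data. Footprints were joined between replicates in the same way. Gene starts were those of GENCODE M21, and bases were read from RefSeq's GRCm38. The promoter signal is the highest value within 500 bp of any start, and distal means over 1 kb from all starts. With 1 group, no test was run. The 10 genes and the lists of related genes and motifs were chosen with earlier results of these data known. Named are all 10 genes, in each related family the 2 with the highest mean and the first 2 by name without a peak, and the genes nearest to the regions described. Sequence of Slc14a1 and of UTRs is not shown. The distal region of Slc1a5 is counted but not reported further here. Alternatives were other windows, starts, lists, peak strengths and joining rules, and leaving out each replicate.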

Additional observations from a re-analysis of the deposited data

How the results depend on the processing

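Of 127 alternative values 115 stayed within the spread between replicates or within 1.5 times the count. Leaving out 1 of 3 replicates cannot move a mean signal beyond its SD, so those signal values had to count as unmoved. Other signal values were identical where the same peak stayed the strongest. The 115 therefore says little about how stable the signals were. Of the 10 genes, 7 to 10 were open in all 3 replicates over all alternatives, and 9 to 10 when 1 replicate was left out. The share of all genes open in all 3 was computed only for the shorter and longer lists with any start, 50.9% and 55.6%. The median promoter signal of the 10 genes rose from 5.91 to 7.08 with a window of 1000 bp, and was 5.48 to 6.20 when 1 replicate was left out. The related transporter genes open in all 3 fell from 30 to 19 among the upper 50% of peaks, an alternative added after the data had been seen, and were 30 to 32 when 1 replicate was left out. Common distal regions fell from 31 to 17 among the upper 50% of peaks, and were 31 to 53 when 1 replicate was left out. In distal windows GATA letters rose from 3 to 6 with 61 bp, and the CTCF count rose from 5 to 14 with the loose core. For single genes 6 of 80 values moved, at Slc14a1, Slc29a1 and Slc6a9, and those that left out 1 replicate could not move. The causes were not tested. No paired analysis was possible because there is only 1 group. Depth is not stated in the files, so a missing peak is not evidence of closed chromatin.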
